A study of Mus musculus with 12 samples.

Results

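Acute-phase proteins and the C/EBP transcription factors were followed in mouse pancreatic stellate cells (PSCs), the fibroblast-like cells of the pancreas. The 7 genes were *Saa3*, *Hp*, *Lcn2*, *Cebpa*, *Cebpb*, *Cebpd* and *Cebpg*, of 39179 genes in the count table, and each was found as a single row by its symbol. The genes were chosen by their measured values in these same libraries, so their levels and changes are given as a description. No test on them is read as support.

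The acute-phase response is the change in secreted plasma proteins that follows inflammation or injury, and is best known from the liver. IL-6 family cytokines act on it through STAT3, IL-1 and TNF act on it through NFκB, and C/EBPβ and C/EBPδ are transcription factors that were first described as activators of acute-phase genes. *Saa3* encodes a serum amyloid A made outside the liver, *Hp* encodes haptoglobin, which binds free haemoglobin, and *Lcn2* encodes lipocalin 2, which binds bacterial siderophores and so withholds iron. C/EBP proteins bind DNA as dimers through a basic leucine zipper. C/EBPα drives adipocyte, hepatocyte and myeloid differentiation, C/EBPβ and C/EBPδ respond to inflammatory signals, and C/EBPγ lacks a transactivation domain and pairs with other family members or with ATF4.

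The PSCs were an SV40-immortalised mouse line, a single clone (strain label C57BL/6) labelled with mCherry. They were kept for 72 h alone (mono-PSCs), with EGFP-labelled pancreatic cancer cells (PCCs; 2W-PSCs), or with PCCs and the TagBFP-labelled macrophage line RAW264.7 (MØs; 3W-PSCs), and were then sorted as mCherry-positive cells negative for EGFP and TagBFP, a gate meant to remove PCCs and MØs, with 4 libraries per culture. Since all 12 libraries came from the same clone, replicates measured the spread between cultures of that clone and not between animals. RNA was read near the 3′ end of polyadenylated transcripts, at about 1 fragment per transcript, so CPM (counts scaled to a common library total) of different genes can be set side by side without correction for length.

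Library totals ran from 4561817 to 8093368 counts. Replicate 2 of the 2W-PSCs stood apart, with Spearman correlations of 0.858 to 0.920 to the other 2W-PSCs. Those correlated at 0.956 to 0.973 with each other over 11776 genes, so values without replicate 2 are given below for several genes. Summed CPM of 15 fibroblast markers was 9509 to 13245 in mono-PSCs, 13336 to 21076 with PCCs and 8363 to 9843 with PCCs and MØs. The last 2 ranges did not overlap, and of 13 fibroblast markers that passed the filter for 3W-PSCs against 2W-PSCs, 6 fell and 2 rose. Over all genes tested, 4.95% were called lower and 5.73% higher. The part of these fibroblast marker changes in the results below was not tested. Beside these, 15 epithelial markers summed to 0.605 to 3.69 CPM in mono-PSCs, to 90.0 to 162 with PCCs and to 59.4 to 104 with PCCs and MØs, and 14 macrophage markers summed to 9.83 to 12.6, 13.5 to 18.6 and 39.3 to 84.4 CPM. In a sorted bulk sample, a change in RNA per cell and a change in the cells collected cannot be told apart.

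Promoter sequence (RefSeq, GRCm38.p6, 250 bases before to 50 bases after the transcription start) was held for 5 of the 7 genes, namely *Saa3*, *Lcn2*, *Cebpa*, *Cebpb* and *Cebpg*. These windows were searched on both strands for a C/EBP consensus (TTNNGNAA), a STAT site (TTCNNNGAA) and an NFκB site (GGG and TTTCC with any 2 bases between them), where N is any base. Both acute-phase promoters contained the C/EBP letters, and are shown because both genes are known targets of the family. Capitals mark the C/EBP matches, and no match to the other motifs was present in the 5 windows.
Saa3 (chr7:46715627-46715926, minus strand): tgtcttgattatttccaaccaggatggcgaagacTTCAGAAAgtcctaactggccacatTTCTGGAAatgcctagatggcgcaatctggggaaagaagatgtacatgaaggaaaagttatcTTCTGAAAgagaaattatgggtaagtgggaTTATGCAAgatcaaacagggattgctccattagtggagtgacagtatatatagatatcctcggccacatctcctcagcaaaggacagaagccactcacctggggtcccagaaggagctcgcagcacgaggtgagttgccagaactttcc
Lcn2 (chr2:32387690-32387989, minus strand): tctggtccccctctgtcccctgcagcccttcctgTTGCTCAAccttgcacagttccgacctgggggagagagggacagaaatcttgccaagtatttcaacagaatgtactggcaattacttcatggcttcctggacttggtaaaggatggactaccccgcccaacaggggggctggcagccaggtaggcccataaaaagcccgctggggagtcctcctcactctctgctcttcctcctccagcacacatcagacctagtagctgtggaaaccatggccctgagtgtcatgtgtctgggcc

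In the *Saa3* window, 4 matches began 216, 191, 129 and 99 bases before the start, the last of them TTATGCAA, and the *Lcn2* window had 1 match on the opposite strand (TTGCTCAA in the printed strand) 216 bases before the start. The C/EBP letters are common, present in 40.7% of 32851 promoter windows of the same length, whereas the STAT letters were in 8.3% and the NFκB letters in 1.63%. The *Cebpa*, *Cebpb* and *Cebpg* windows held none of the 3 motifs. A match is a description of the letters in this window.

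*Saa3* had the highest mean of the 7 genes in 3W-PSCs, although *Cebpd* was above it in replicates 3 and 4, and it was barely detected in the other cultures. The gene (ENSMUSG00000040026) spans 46711998 to 46715700 of chromosome 7 (GRCm38), minus strand. In mono-PSCs its level was 0.878, 4.31, 3.55 and 2.66 CPM in replicates 1 to 4, and in 2W-PSCs it was 1.13, 3.19, 3.50 and 2.25 CPM. In 3W-PSCs it reached 343, 331, 122 and 149 CPM. All 4 libraries with MØs were above the other 8, and within 3W-PSCs replicates 1 and 2 were above replicates 3 and 4. The means were 2.85 ± 1.48, 2.52 ± 1.07 and 236 ± 117 CPM (SD, n = 4 each) in mono-PSCs, 2W-PSCs and 3W-PSCs. By rank within a library, *Saa3* moved from place 9612 or lower in mono-PSCs and place 9793 or lower in 2W-PSCs to places 365, 372, 1355 and 1079 in 3W-PSCs. The fitted log2 fold change (edgeR) was 6.58 (SE 0.478) for 3W-PSCs against 2W-PSCs and 6.38 (SE 0.412) against mono-PSCs, while 2W-PSCs and mono-PSCs differed by -0.17 (SE 0.589). Without 2W-PSC replicate 2 the first value was 6.70 (SE 0.470).

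*Hp* followed the same order of cultures at a lower level. The gene (ENSMUSG00000031722) spans 109575128 to 109579172 of chromosome 8, minus strand. The 4 mono-PSC libraries held 0, 2, 1 and 4 counts of *Hp*, and the 2W-PSC libraries held 0, 1, 1 and 0. The 3W-PSC libraries held 214, 270, 125 and 96 counts, equal to 28.4, 31.2, 15.9 and 12.5 CPM. Replicates 1 and 2 were again the higher pair, and no library of another culture came near the lowest of the 4. Means were 0.263 ± 0.217, 0.101 ± 0.122 and 22.0 ± 9.21 CPM (SD, n = 4 each) for mono-PSCs, 2W-PSCs and 3W-PSCs. Because the 2W-PSCs gave 2 counts in all, the ratio of 3W-PSCs to 2W-PSCs is given from summed counts, as 263-fold with a 95% counting interval of 72.6 to 2177 (exact Clopper-Pearson, counting error only). Against mono-PSCs, with 7 counts, the log2 fold change was 6.20 (SE 0.512).

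*Lcn2* was the least abundant of the 3 acute-phase genes. It spans 32384633 to 32388252 of chromosome 2, minus strand (ENSMUSG00000026822). Counts of *Lcn2* were 0, 0, 0 and 1 in mono-PSCs, 0, 5, 4 and 0 in 2W-PSCs and 40, 45, 28 and 38 in 3W-PSCs. The 3W-PSC libraries thus had 5.31, 5.20, 3.56 and 4.94 CPM (mean 4.75 ± 0.810, SD, n = 4), all above the highest 2W-PSC library, and replicates 1 and 2 were again above replicates 3 and 4, although replicate 4 lay close to them. In the 2W-PSCs, where the mean was 0.466 ± 0.589 CPM (SD, n = 4), only replicates 2 and 3 had any count. The log2 fold change for 3W-PSCs against 2W-PSCs was 3.50 (SE 0.804), and 4.42 (SE 0.793) without 2W-PSC replicate 2. Against the single count of the mono-PSCs, the ratio of summed counts was 118 (95% counting interval 20.8 to 4673), and between 2W-PSCs and mono-PSCs it was 9.38 (1.30 to 411). Both intervals cover counting error only. The summed epithelial markers were likewise higher in 2W-PSCs, at 90.0 to 162 CPM, than in mono-PSCs, at 0.605 to 3.69 CPM. The part of PCC RNA in the *Lcn2* counts was not tested.

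**Figure D1:**
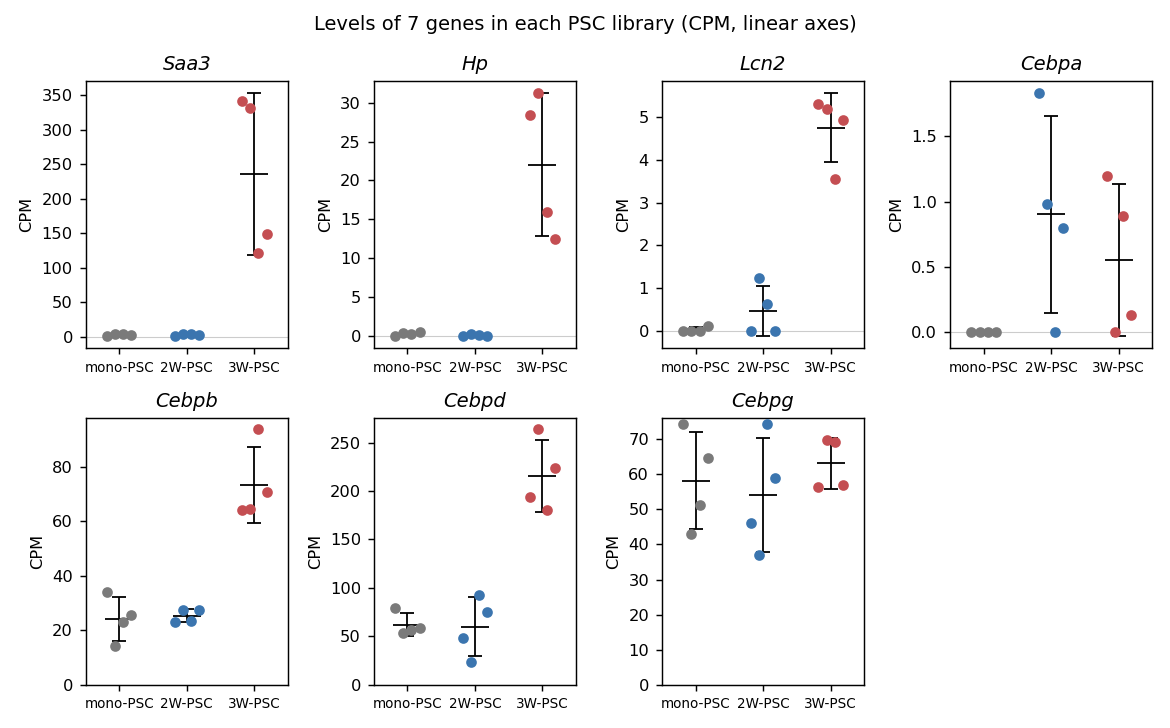
Levels of the 7 genes in each of the 12 libraries, in CPM on linear axes with a scale of their own per gene. Points are libraries in the order of their replicate numbers, the bar is the mean and the whiskers the SD (n = 4). The 3W-PSC points of Saa3, Hp, Lcn2, Cebpb and Cebpd lie above all points of the other cultures, while those of Cebpa and Cebpg overlap them.

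The C/EBP factors divided into a pair that was higher with MØs and a pair that was not. *Cebpb* (ENSMUSG00000056501) spans 167688915 to 167690418 of chromosome 2, plus strand, in a single exon. Its level was 34.1, 14.3, 23.1 and 25.7 CPM in mono-PSCs, and 23.1, 27.5, 23.4 and 27.5 CPM in 2W-PSCs. In 3W-PSCs it was 64.3, 64.4, 94.0 and 70.7 CPM. The lowest 3W-PSC library was above the highest of the other 8, and the means were 24.3 ± 8.13, 25.4 ± 2.44 and 73.4 ± 14.1 CPM (SD, n = 4 each). The log2 fold change of *Cebpb* was 1.54 (SE 0.185) against 2W-PSCs and 1.58 (SE 0.224) against mono-PSCs. Replicate 3, among the lower pair for *Saa3* and *Hp*, had the highest *Cebpb*.

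*Cebpd* was the most abundant C/EBP mRNA in 3W-PSCs. It spans 15887286 to 15891031 of chromosome 16, plus strand (ENSMUSG00000071637). Mono-PSCs had 79.5, 53.9, 56.1 and 58.8 CPM of *Cebpd*, and 2W-PSCs had 48.0, 23.3, 92.8 and 75.3 CPM. The 3W-PSCs had 194, 264, 181 and 224 CPM. The 3W-PSCs did not overlap the other cultures, and the 2W-PSCs spread most widely, with replicate 2, the library that stood apart, as the lowest of all 12. Means were 62.1 ± 11.8, 59.9 ± 30.6 and 216 ± 36.8 CPM (SD, n = 4 each). The log2 fold change of *Cebpd* against 2W-PSCs was 1.85 (SE 0.344), or 1.58 (SE 0.209) without 2W-PSC replicate 2, and 1.79 (SE 0.174) against mono-PSCs. In the rank order of a library, *Cebpd* was between places 514 and 810 in 3W-PSCs, and between 1855 and 5478 elsewhere.

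*Cebpg* did not separate the cultures. Its level was 74.3, 42.9, 51.1 and 64.6 CPM in mono-PSCs. In 2W-PSCs it was 46.2, 37.0, 74.2 and 58.9 CPM, and the 3W-PSCs had 56.4, 69.9, 69.1 and 57.0 CPM. The ranges overlap in each pair of cultures, with means of 58.2 ± 13.9, 54.1 ± 16.1 and 63.1 ± 7.37 CPM (SD, n = 4 each). The log2 fold change of *Cebpg* was 0.22 (SE 0.217) for 3W-PSCs against 2W-PSCs, 0.11 (SE 0.181) against mono-PSCs and -0.09 (SE 0.253) for 2W-PSCs against mono-PSCs. *Cebpg* (ENSMUSG00000056216, chromosome 7 from 35046422 to 35056573, minus strand) and *Cebpa* (ENSMUSG00000034957, chromosome 7 from 35119293 to 35121928, plus strand) are neighbours, with 62.7 kb between them.

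*Cebpa* was close to the limit of detection. Its counts were 0 in all 4 mono-PSC libraries, 13, 4, 0 and 5 in 2W-PSCs and 9, 0, 7 and 1 in 3W-PSCs, so that both co-cultures included a library without any. The mean was 0.904 ± 0.751 CPM with PCCs alone, and 0.554 ± 0.581 CPM with PCCs and MØs (SD, n = 4 each). Set against a floor of 3 counts over the 4 mono-PSC libraries, *Cebpa* was 7.65-fold higher in 2W-PSCs and, by the same floor, 4.41-fold higher with MØs. The lower 95% counting limits of these ratios were 5.71 and 3.21. The ratio of 3W-PSCs to 2W-PSCs was 0.577 (95% counting interval 0.288 to 1.14). It did not pass the filter on low counts in any comparison. The epithelial marker *Krt18* was likewise at 0 or 1 count in each mono-PSC library and at 15.3 to 53.1 CPM in the co-cultured libraries, and the part of PCC RNA in the *Cebpa* counts was not tested.

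**Figure D2:**
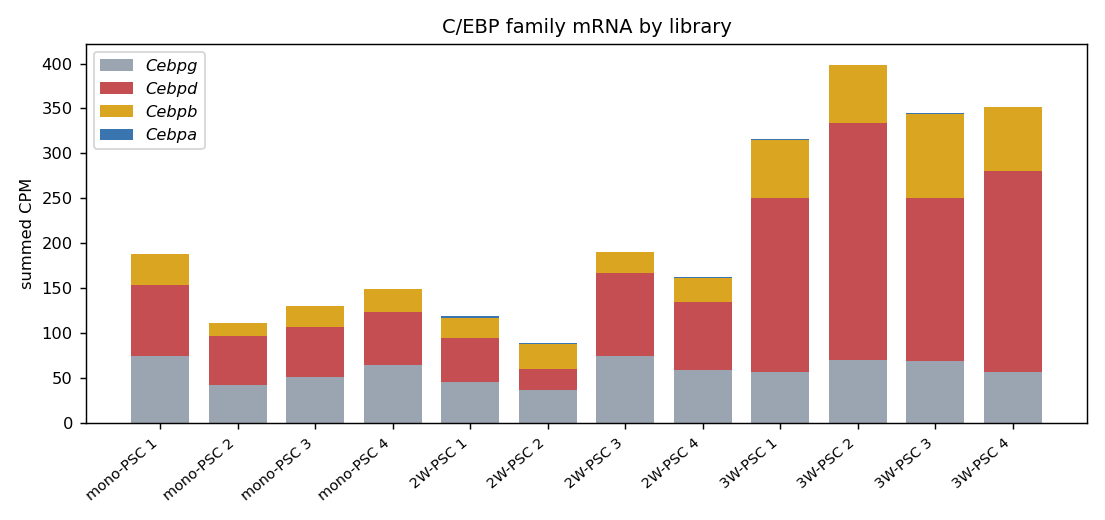
C/EBP family mRNA in each library, as stacked CPM of Cebpg, Cebpd, Cebpb and Cebpa from bottom to top. The totals of the 3W-PSCs lie between 316 and 398 CPM and those of the other 8 libraries between 88.8 and 190, with a Cebpg layer of similar height throughout.

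The make-up of the C/EBP pool differed between the cultures. *Cebpd* made up 52.4 to 66.3% of the summed C/EBP counts in 3W-PSCs, against 39.4 to 48.5% in mono-PSCs and, in 2W-PSCs, 26.2 to 48.7%, with no overlap between 3W-PSCs and the rest. *Cebpg* made up 16.2 to 20.04% in 3W-PSCs, against 38.6 to 43.3% and 36.3 to 41.7%. The share of *Cebpb* overlapped between cultures, at 16.2 to 27.3% in 3W-PSCs, 12.9 to 18.1% in mono-PSCs and 12.3 to 30.9% in 2W-PSCs. Summed over the 4 genes, the mean level was 145 ± 32.8, 140 ± 45.1 and 353 ± 33.97 CPM (SD, n = 4 each) in the order mono-PSCs, 2W-PSCs, 3W-PSCs. Within 3W-PSCs the ratio of *Cebpd* to *Cebpb* counts ranged from 1.92 in replicate 3 to 4.09 in replicate 2.

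*Saa3* also dominated the summed counts of the 3 acute-phase genes in 3W-PSCs, with 86.2 to 91.0%, while *Hp* had 7.51 to 11.3% and *Lcn2* 1.41 to 2.97%. The ratio of *Saa3* to *Hp* stayed between 7.66 and 12.1 over the 4 libraries, although the summed level of the 3 genes ranged from 141 to 376 CPM. In the order of mean levels, mono-PSCs and 2W-PSCs both ran from *Cebpd* through *Cebpg* and *Cebpb* to *Saa3*, and of the neighbours in that order only *Cebpd* and *Cebpg* overlapped in their ranges. In 2W-PSCs *Cebpd*, whose lowest library was at 23.3 CPM, also overlapped *Cebpb*. In 3W-PSCs the order was *Saa3*, *Cebpd*, *Cebpb*, *Cebpg*, *Hp*, *Lcn2* and *Cebpa*. There, the ranges of *Saa3* and *Cebpd* overlapped, as did those of *Cebpb* and *Cebpg*, and the other neighbours were apart.

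**Figure D3:**
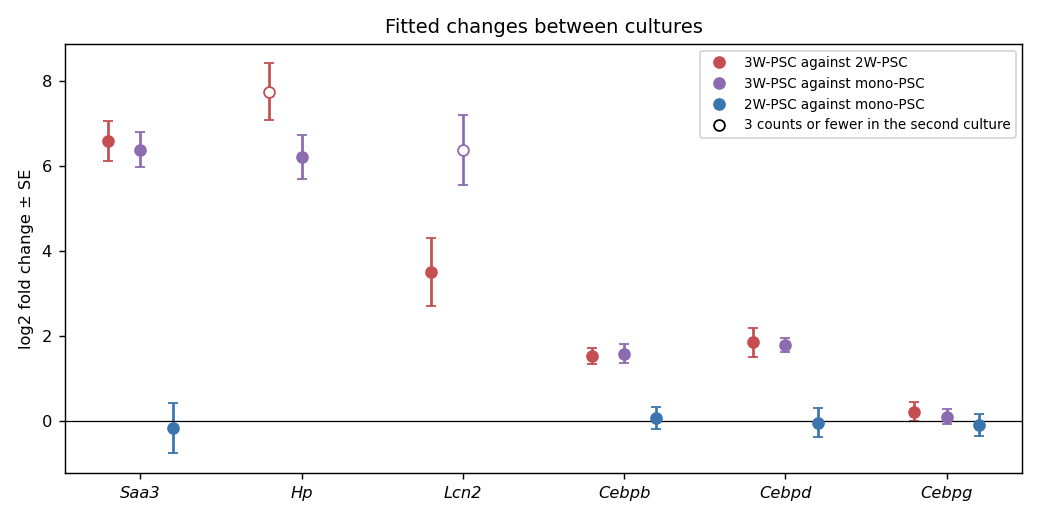
Fitted log2 fold changes (points) with their standard errors (bars) for the 6 genes that passed the filter, in the 3 comparisons. Open points have 3 counts or fewer in the second culture, and depend on the prior count. Points for 3W-PSCs lie between 1.54 and 7.74 for 5 genes and near 0 for Cebpg, and those for 2W-PSCs against mono-PSCs lie near 0.

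Set against all genes, 6 of the 7 passed the filter on low counts for 3W-PSCs against 2W-PSCs, and 5 of them (all but *Cebpg*) were called higher by edgeR's quasi-likelihood test at an adjusted p under 0.05. Of 11513 genes tested, 10.7% were called, 5.73% higher and 4.95% lower. All 4 libraries of 3W-PSCs were above all 4 of 2W-PSCs for 11.5% of those genes and for the same 5 members. Against mono-PSCs, the same 5 were called higher and did not overlap, beside 26.4% of 11551 genes called, 13.4% higher, 13.0% lower, and 13.7% without overlap in the higher direction. For 2W-PSCs against mono-PSCs, *Saa3*, *Cebpb*, *Cebpd* and *Cebpg* passed the filter and none was called, with 0.991% of 11199 genes called, 0.839% higher, 0.152% lower, and 3.29% without overlap in the higher direction. The rule had used these same levels, so nothing is read from the members' counts. The call of *Lcn2* against 2W-PSCs was lost without 3W-PSC replicate 1, 2 or 4. The calls of the other 4 were present in all 14 alternatives of each comparison with 3W-PSCs. These alternatives refit the same libraries by which the members were chosen, so they are no support for the calls. *Hp* and *Lcn2* also passed the filter only through the 3W-PSCs.

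The genes whose profile over the 12 libraries was most like that of *Saa3* were the chemokine genes *Ccl2*, *Ccl7* and *Cxcl10*. Likeness was the root mean square difference of log2 CPM, each gene centred on its own mean, among 8699 genes, and was 1.03, 1.08 and 1.16 for these genes, where the median gene was at 3.06. *Ccl2* averaged 27.2, 26.7 and 1203 CPM in mono-PSCs, 2W-PSCs and 3W-PSCs. The genes nearest to *Cebpb* were *Abcc1* (0.235), *Pabpc1* (0.249) and *Slc2a1* (0.277), a drug efflux pump, a poly(A)-binding protein and a glucose transporter. Nearest to *Cebpd* were *Psrc1* (0.333), *C1s* (0.350) and *Antxr1* (0.351), of which *C1s* encodes a complement protease. Nearest to *Cebpg* were *Josd1* (0.120), *2610002M06Rik* (0.135) and *Cerk* (0.161), whose means, like that of *Cebpg*, differed little between cultures. *Hp*, *Lcn2* and *Cebpa* were too low for this comparison.

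Of 36 other acute-phase genes, 20 had no count in any library, among them the liver serum amyloid gene *Saa1*, the C-reactive protein gene *Crp* and *Orm1*, and 3 more had 1 to 3 counts in all. *Saa2*, another liver gene named after its values were seen, had 3 counts in 3W-PSC replicate 1 and none elsewhere. Of the 9 that passed the filter for 3W-PSCs against 2W-PSCs, 6 rose, none fell and 3 did not pass the test, beside 5.73% of all genes tested called higher. The median log2 fold change was 6.16, or 5.88 with *C4b* set against 3 counts over the 2W-PSCs, beside 0.00 for all genes tested. *C4b*, *Serpina3g*, *Serpina3n* and *Lbp* had at most 1 count in 2W-PSCs, and *C3* had at most 7 in any 2W-PSC library. These genes passed the filter only through the culture in which they are high. Neither the count of genes that rose nor the median is therefore support for a change of the list.

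The complement gene *C3*, which encodes the central component of the cascade, had 12 counts over the 2W-PSCs and 5882 over the 3W-PSCs, from 0.488 ± 0.438 to 186 ± 28.9 CPM (SD, n = 4 each; log2 fold change 8.48, SE 0.369, edgeR adjusted p = 7.79e-07). This p-value is a description, since *C3* passed the filter through the 3W-PSCs and its list was written with earlier results known. *C4b*, a complement component upstream of *C3*, had no count in 2W-PSCs and 54, 80, 26 and 77 in 3W-PSCs. Set against 3 counts over the 2W-PSCs it was 59.0-fold higher (lower 95% counting limit 47.6). Part of its 3′ end, 14.6% of 75-base windows, is shared with *C4a*. *Serpina3g*, a serpin of activated lymphoid and myeloid cells, had 1 count in 2W-PSCs and 118, 121, 62 and 69 counts in 3W-PSCs, a ratio of 276 (95% counting interval 49.3 to 10940). It shares 9.93% of its 3′ windows with *Serpina3f*, *Serpina3h* and *Serpina3i*. The other genes that rose, named here after their values were seen, were *Serpina3n*, *Lbp* and *Cp*. *Cp*, the copper-carrying ferroxidase ceruloplasmin, was also present in 2W-PSCs, at 25.8 ± 8.14 CPM, against 110 ± 17.5 CPM with MØs (SD, n = 4 each; log2 fold change 2.08, SE 0.236, edgeR adjusted p = 0.000413).

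Against mono-PSCs, 9 of 10 other acute-phase genes that passed the filter rose in 3W-PSCs and none fell, beside 13.4% of all genes tested called higher. Of the 10, 6 had at most 2 counts over the mono-PSCs, and *C3* had at most 6 in any mono-PSC library. These genes passed the filter through the 3W-PSCs, so the count of genes that rose is no support either. For 2W-PSCs against mono-PSCs, 3 passed the filter, and 1 rose, the IL-1 receptor antagonist gene *Il1rn*, which was named after its values were seen. *Il1rn* had 1 count over the mono-PSCs and so passed that filter through the 2W-PSCs. Its means were 19.1 ± 8.34 and 18.5 ± 7.41 CPM in 2W-PSCs and 3W-PSCs (SD, n = 4 each), so that its level differed by -0.04 on the log2 scale between the co-cultures (SE 0.350, edgeR adjusted p = 0.953). The summed epithelial markers were likewise low in mono-PSCs alone, at 0.605 to 3.69 CPM, and the part of PCC RNA in it was not tested. Of 8 genes that the acute-phase response lowers in the liver, 2 passed the filter for 3W-PSCs against 2W-PSCs and neither was called. One of them, the retinol carrier gene *Rbp4*, named after its values were seen, had 4 counts over the mono-PSCs, 172 over the 2W-PSCs and 160 over the 3W-PSCs. Against mono-PSCs *Rbp4* rose in 2W-PSCs (log2 fold change 5.26, SE 0.921, edgeR adjusted p = 0.0115) and in 3W-PSCs (4.80, SE 0.808, edgeR adjusted p = 0.00022), beside the same epithelial markers. *Rbp4* passed the filter only through the co-cultures in which it is high, and the part of PCC RNA was not tested.

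**Figure D4:**
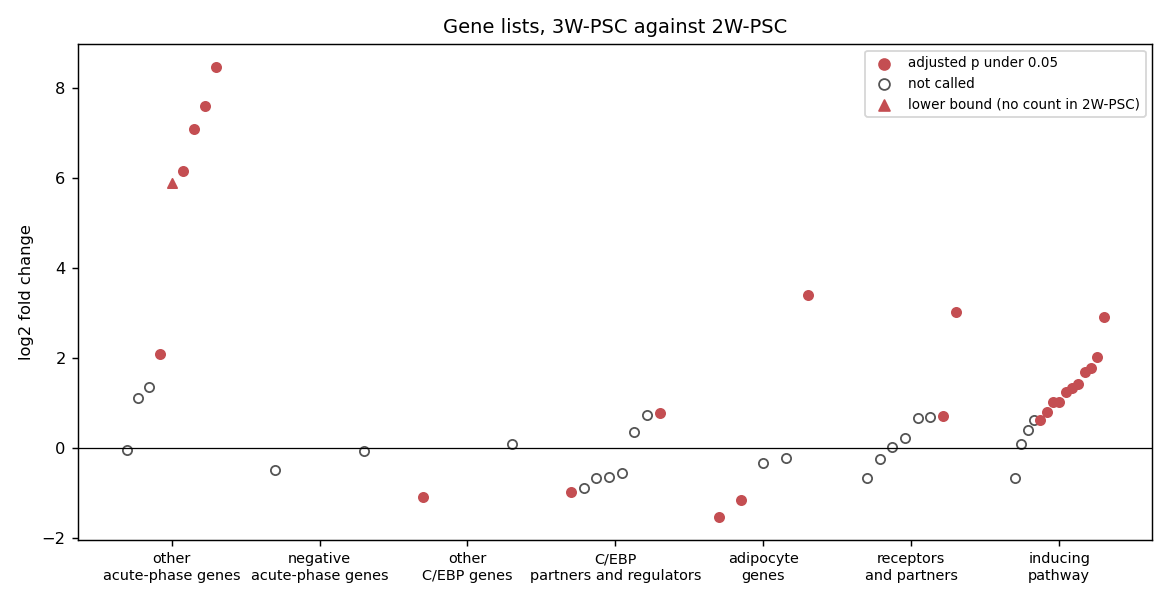
Log2 fold changes of the genes of 7 lists that passed the filter, 3W-PSCs against 2W-PSCs, with genes ordered by value within each list. Filled symbols have an edgeR adjusted p under 0.05 and the triangle, marked as a lower bound, is C4b set against 3 counts over the 2W-PSCs. Called genes lie above 0 in the other acute-phase and inducing pathway lists and on both sides of it in the lists of partners and adipocyte genes.

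Other basic leucine zipper genes and regulators of C/EBP proteins went both ways. *Ddit3*, which encodes the stress-induced family member CHOP, was at 876 ± 125 CPM in mono-PSCs, at 775 ± 313 CPM with PCCs and at 366 ± 68.6 CPM with PCCs and MØs (SD, n = 4 each), and fell by 1.08 on the log2 scale between the co-cultures (SE 0.265, edgeR adjusted p = 0.0258). Without 2W-PSC replicate 2, the log2 fold change of *Ddit3* between the co-cultures was smaller, at -0.77 (SE 0.165). Its call was lost without 2W-PSC replicate 4 or 3W-PSC replicate 1, 2 or 4 (adjusted p of 0.0584 to 0.1). *Cebpz*, a family member by name, was at a log2 fold change of 0.10 (SE 0.169, edgeR adjusted p = 0.744). Of 8 partners and regulators that passed the filter, 1 rose, 1 fell and 6 were not called, with a median of -0.59. Over all genes tested, 5.73% were called higher and 4.95% lower. With single libraries left out, 0 to 1 of the list rose and 0 to 2 fell, with 2 without 2W-PSC replicate 2 or 3. With the replicate block, 2 rose and none fell.

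*Trib2* and *Trib3* encode Tribbles pseudokinases, of which TRIB2 leads C/EBPα to degradation. *Trib2* had 46.5, 64.3, 42.8 and 36.6 CPM in the 4 2W-PSC libraries, below the 87.0, 80.4, 89.2 and 67.3 CPM of the 3W-PSCs, without overlap (log2 fold change 0.77, SE 0.199, edgeR adjusted p = 0.0319). The call of *Trib2* was lost without any of 2W-PSC replicates 1, 3 and 4 or 3W-PSC replicates 1, 2 and 3 (adjusted p of 0.0589 to 0.104). *Trib2* also rose in 2W-PSCs against mono-PSCs, from 11.5 ± 3.05 to 47.5 ± 11.9 CPM (SD, n = 4 each; log2 fold change 2.07, SE 0.273, edgeR adjusted p = 0.00215). *Trib3* fell by 0.97 on the log2 scale, from 243 ± 44.8 to 124 ± 34.4 CPM (SD, n = 4 each; SE 0.224, edgeR adjusted p = 0.0196), a call lost without 3W-PSC replicate 1, 2 or 4 (adjusted p of 0.0523 to 0.0722). Against mono-PSCs, 2 genes of this list rose in 3W-PSCs and 4 fell, beside 13.4% of all genes tested called higher and 13.0% lower.

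Adipocyte genes, many of which C/EBPα and PPARγ activate in fat, went in both directions. Of 14 genes, 6 had no count and 5 passed the filter for 3W-PSCs against 2W-PSCs, of which 1 rose, 2 fell and 2 were not called (median log2 fold change -0.33). Over all genes tested, 5.73% were called higher and 4.95% lower. *Fabp4*, a fatty acid carrier of adipocytes and macrophages, had 0, 0, 9 and 12 counts in 2W-PSCs, against 80, 109, 41 and 68 counts with MØs (log2 fold change 3.39, SE 0.764, edgeR adjusted p = 0.0166). *Fabp4* passed the filter through the 3W-PSCs, and the part of macrophage RNA in its counts was not tested. It lost its call without 3W-PSC replicate 1 or 2 (adjusted p of 0.0576 and 0.0692). *Lpl*, lipoprotein lipase, fell by 1.53 on the log2 scale from 145 ± 40.3 to 50.3 ± 13.9 CPM (SD, n = 4 each; SE 0.253, edgeR adjusted p = 0.00397). It was at 311 ± 21.7 CPM in mono-PSCs (SD, n = 4). *Plin4*, a lipid droplet coat protein, fell by 1.15 on the log2 scale (SE 0.281, edgeR adjusted p = 0.0258), with a range of 8.34 to 14.8 CPM in 2W-PSCs against 4.28 to 6.63 CPM with MØs. That call was lost without any of 2W-PSC replicates 3 and 4 or 3W-PSC replicates 1 to 4 (adjusted p of 0.0504 to 0.0957).

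Among receptors and partners of the 3 acute-phase proteins, 8 genes passed the filter for 3W-PSCs against 2W-PSCs. Of these, 2 rose, none fell and 6 were not called (median log2 fold change 0.44), beside 5.73% of all genes tested called higher. Without 2W-PSC replicate 2, 4 rose, and without 3W-PSC replicate 2 or 4, 1 did. *Tlr2*, a receptor through which serum amyloid A can act, was at 1.41, 2.94, 3.66 and 3.37 CPM in 2W-PSCs, while the 3W-PSCs had 22.4, 24.98, 25.8 and 19.7 CPM, without overlap (log2 fold change 3.04, SE 0.305, edgeR adjusted p = 0.000181). *Lrp1*, an endocytic receptor for many ligands, went from 144 ± 16.6 CPM with PCCs alone to 235 ± 57.2 CPM with PCCs and MØs (SD, n = 4 each; log2 fold change 0.71, SE 0.195, edgeR adjusted p = 0.0411). The call of *Lrp1* was lost with all 12 libraries in a single fit (adjusted p = 0.148) and without 2W-PSC replicate 1, 3 or 4 or 3W-PSC replicate 2, 3 or 4 (0.0588 to 0.116). For 2W-PSCs against mono-PSCs, none of 7 receptor genes was called by edgeR.

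Genes of the pathways known to induce acute-phase proteins were all detected, and 11 of 15 rose in 3W-PSCs against 2W-PSCs, none fell and 4 were not called (median log2 fold change 1.03). Of all genes tested, 5.73% were called higher. This list was written with earlier results of these data known, so its counts are a description. Leaving out single libraries gave 6 to 12 genes that rose, with 6 without 2W-PSC replicate 4 or 3W-PSC replicate 1 or 2 and 7 without 2W-PSC replicate 1 or 3W-PSC replicate 3 or 4. *Osmr*, the receptor chain for oncostatin M, was at 8.73, 4.42, 10.03 and 8.03 CPM in 2W-PSCs, against 65.9, 78.7, 46.3 and 47.8 CPM with MØs (log2 fold change 2.92, SE 0.282, edgeR adjusted p = 0.000144). As for *Saa3* and *Hp*, replicates 1 and 2 were the higher pair. *Stat3*, the transcription factor downstream of the IL-6 family receptors, rose from 69.0 ± 11.2 to 237 ± 42.1 CPM (SD, n = 4 each; log2 fold change 1.78, SE 0.189, edgeR adjusted p = 0.000271). *Socs3*, the feedback inhibitor of that pathway, had 21.5, 1.23, 30.3 and 13.2 CPM in 2W-PSCs, against 64.8, 79.8, 68.2 and 58.8 CPM with MØs (log2 fold change 2.02, SE 0.546, edgeR adjusted p = 0.0386). The low value was that of replicate 2, without which the log2 fold change of *Socs3* was 1.65 (SE 0.233). The call of *Socs3* was lost without 2W-PSC replicate 1 or 4 or any 3W-PSC replicate (adjusted p of 0.0697 to 0.116). Against mono-PSCs, 13 of the 15 rose in 3W-PSCs, beside 13.4% of all genes tested. In 2W-PSCs 1 of the 15 did, beside 0.839% of all genes tested, a call lost without mono-PSC replicate 2, 3 or 4 or 2W-PSC replicate 1 or 4.

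Macrophage markers were higher beside *Saa3*, *Hp* and *Lcn2*. Of the 6 that passed the filter for 3W-PSCs against 2W-PSCs, 3 rose (*Cd14*, *Mpeg1* and *Cd53*), none fell and 3 were not called. Of all genes tested, 5.73% were called higher. *Mpeg1* and *Cd53* had at most 8 and 7 counts in any 2W-PSC library and passed the filter through the 3W-PSCs. The count of markers that rose thus rests in part on the filter. The summed CPM of all 14 in 3W-PSCs was 44.2, 39.3, 50.9 and 84.4 in replicates 1 to 4. *Ptprc*, which encodes the leukocyte antigen CD45, had 0, 0, 6 and 20 counts in these libraries and none in the other 8, and *Tyrobp* had 2, 4, 0 and 22. *Laptm5* had 1, 1, 6 and 75 counts, and these 3 markers were highest in replicate 4. Others were present in every 3W-PSC library, with 38, 40, 75 and 67 counts of *Mpeg1*, 41, 36, 37 and 55 of *Cd53* and 15, 27, 17 and 15 of *Csf1r*. *Saa3* was at 343, 331, 122 and 149 CPM in the same libraries. The part of macrophage RNA in the levels of *Saa3*, *Hp* and *Lcn2* was not tested. *Cd14*, which is not restricted to macrophages, made up 20.2, 22.4, 25.1 and 23.4 CPM of these sums and was present in mono-PSCs at 2.35 to 9.05 CPM. Of the 14 markers, 0 to 3 were at 0 counts in 3W-PSCs and 7 to 9 in the other cultures.

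**Figure D5:**
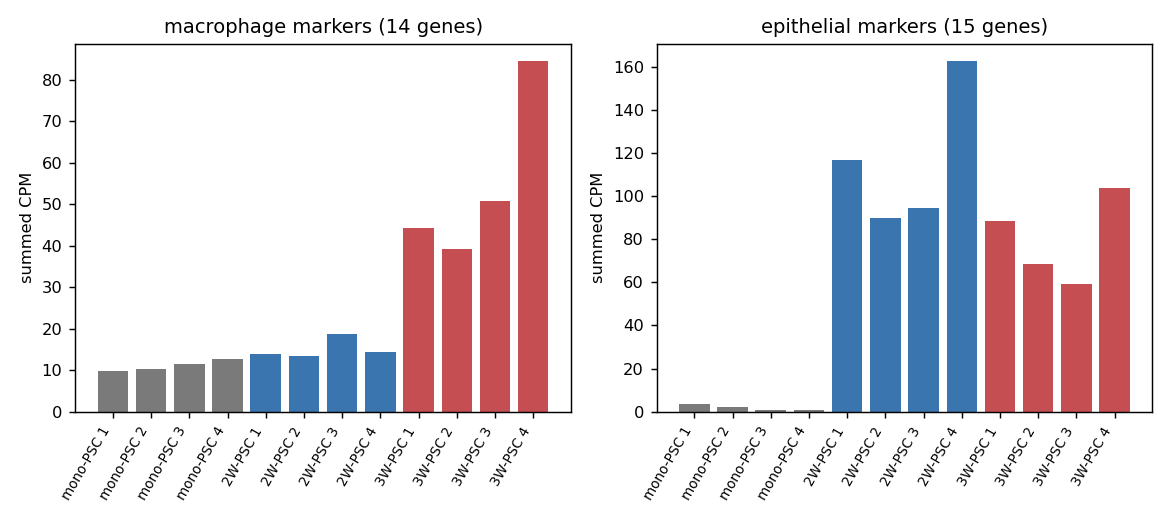
Summed CPM of 14 macrophage markers (left) and 15 epithelial markers (right) in each library, with bars coloured by culture. Macrophage marker sums are highest in 3W-PSC replicate 4 at 84.4 CPM, and epithelial marker sums are at most 3.69 CPM in mono-PSCs and at least 59.4 CPM in the co-cultured libraries.

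Near their 3′ ends these genes shared little sequence with other transcripts. Of the 75-base windows within 500 bases of the annotated transcript ends, 2.56% of those of *Saa3* recurred in transcripts of other genes and none of the other 6 members did. *Cebpb* shares 312 exonic bases with *Tmem189* and *Cebpd* shares 562 with *Spidr*, both on the opposite strand, and the setting for strand in the counting was not given in the sources used here. *Tmem189* was at 18.3 ± 3.51, 23.5 ± 8.29 and 26.8 ± 3.80 CPM and *Spidr* at 13.0 ± 3.18, 17.1 ± 3.85 and 23.9 ± 1.34 CPM in mono-PSCs, 2W-PSCs and 3W-PSCs (SD, n = 4 each). In 3W-PSCs both levels are below those of *Cebpb* and *Cebpd*. In the other cultures *Tmem189* overlapped *Cebpb* in range, at 14.4 to 22.8 against 14.3 to 34.1 CPM in mono-PSCs. In 2W-PSCs the ranges were 17.0 to 35.6 and 23.1 to 27.5 CPM. The part of opposite-strand reads in these counts was not tested. *Cebpg* shares 73 exonic bases with other genes on its own strand and 4 on the opposite strand, and *Cebpa* shares 51 with *Gm45091* on the opposite strand.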

How the data were processed

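RNA of sorted PSCs was measured in 12 libraries, 4 per culture, made with the QuantSeq 3′ FWD kit. The authors checked reads with FastQC, aligned them with STAR to GRCm38 and counted them with featureCounts, and the deposited values are raw counts per gene, with no normalisation. Library totals ran from 4561817 to 8093368 counts. Molecular identifiers are not named in the sources used here, so intervals cover counting error only.

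Levels are CPM with TMM factors over 12 libraries. Cultures were compared in pairs with edgeR 4.0.16 (R 4.3.3; filterByExpr, glmQLFit, glmQLFTest, prior count 0.125), 8 libraries per fit, with Benjamini-Hochberg adjustment over all genes tested and calls at an adjusted p under 0.05. DESeq2 1.42.0, the study's tool, served as an alternative, with another scaling, no filter, 1 fit of 12 libraries, a replicate block, a prior count of 2, removal of abundant rRNA genes and left-out libraries. Where a culture had no count the fold is set against 3 counts over the group, and with 1 to 3 counts it is a ratio of sums with a 95% interval.

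The 7 genes and all lists were chosen with earlier results of these data known. Beside the members, the text names for each list the 3 largest and 3 smallest log2 fold changes called in 3W-PSCs against 2W-PSCs, any list gene a member is set against, and the 3 genes most alike for members with a mean log2 CPM above 3 (log2 CPM with a prior count of 2). Exceptions are marked. Positions are from GENCODE M21 (GRCm38) and promoters from RefSeq. The edgeR script was tested on simulated data.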

Additional observations from a re-analysis of the deposited data

Results flagged for a closer look

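In 61 groups of 4 libraries examined for the members and the named list genes, a single library lay far from the other 3 of its culture in 4, and chance gives about 1 in 20. All 4 are single counts beside libraries at 0, which the rule always flags, so that rate does not apply to them. *Lcn2* was at 0.121 CPM in mono-PSC replicate 4 and at 0 in the other mono-PSCs. *C4b* and *Serpina3g* were both at 0.196 CPM in mono-PSC replicate 2 and at 0 in the other 3 libraries. *Serpina3g* was at 0.141 CPM in 2W-PSC replicate 1 and at 0 in the other 2W-PSCs.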

How the results depend on the processing

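Of 240 values of the members' log2 fold changes under the alternatives, 232 moved by less than 1 SD between replicates and none of the called changes reversed. With a prior count of 2, *Hp* was at 5.89 for 3W-PSCs against 2W-PSCs and at 5.31 against mono-PSCs, and *Lcn2* at 3.97 against mono-PSCs, since these folds rest on few counts. With a library left out, *Hp* ranged from 7.30 to 8.34 against 2W-PSCs, *Lcn2* from 3.01 to 4.42 against 2W-PSCs, and *Lcn2* from 6.10 to 8.03 against mono-PSCs, where mono-PSC replicate 4 holds the only count. The highest values of *Hp* and *Lcn2* against 2W-PSCs came without 2W-PSC replicate 2.

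Genes called for 3W-PSCs against 2W-PSCs numbered 1230, 1808 by the DESeq2 Wald test and 497 to 2107 with a library left out, lowest without 3W-PSC replicate 2 and highest without 2W-PSC replicate 2. For 2W-PSCs against mono-PSCs, 111 genes were called, 275 by DESeq2, 262 with all 12 libraries in a single fit, 177 without the filter and 61 to 233 with a library left out, highest without 2W-PSC replicate 2. The cause was not tested. Of 570 values of the named list genes, 46 crossed the threshold and none of the called changes reversed. Among the calls of 2W-PSCs against mono-PSCs, that of *Lpl* (log2 fold change -1.08, adjusted p = 0.0398) was lost without mono-PSC replicate 1, 2, 3 or 4 or 2W-PSC replicate 1 or 4 (adjusted p of 0.0716 to 0.149).

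The cultures share replicate numbers in the labels, but no label says what a number marks, and not every same-numbered pair deviated together, so the samples were not treated as paired. Deviations from the culture means correlated at over 0.1 in 5 of 12 same-numbered pairs (-0.048 to 0.338), and 4 of 12 libraries had their best match in both other cultures at their own number. The same-numbered mono-PSCs and 2W-PSCs correlated at 0.338, 0.259, 0.211 and 0.0989, so a partial pairing of these cultures was not excluded. With the replicate block, 752 genes were called for 3W-PSCs against 2W-PSCs, 3092 for 3W-PSCs against mono-PSCs and 135 for 2W-PSCs against mono-PSCs, and *Lcn2*, *Ddit3*, *Trib3*, *Fabp4*, *Plin4*, *Lrp1* and *Socs3* were not called against 2W-PSCs, and no other call of a member or named list gene was lost. At these depths, genes with under about 3 counts in a culture allow only bounds or wide intervals.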
